A study of Arabidopsis thaliana with 72 samples.

Results

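ICL, the gene of isocitrate lyase, was followed through 72 Affymetrix ATH1 arrays of whole Arabidopsis seedlings by its single probe set, 1 of 22810 on the array. It is 1 of 13350 genes that a probe set names alone. It was chosen because its level stood apart in mock-treated seedlings of the dwarf mutants ga1-5 and det2-1, and because the same mutants received the hormone that they lack. The mutant differences and the responses to gibberellin A3 (GA3) and brassinolide (BL) therefore describe what chose the gene, and no test is given for them. All seedlings were 7 days old and grown at 22 °C. Wild-type Col-0 received mock treatment, indole-3-acetic acid (IAA, an auxin, 1 µM), zeatin (a cytokinin, 1 µM), GA3 (1 µM), abscisic acid (ABA, 10 µM), methyl jasmonate (MJ, 10 µM), the ethylene precursor ACC (10 µM) or BL (a brassinosteroid, 10 nM). The ga1-5 seedlings received mock treatment or GA3 (1 µM), and the det2-1 seedlings mock treatment or BL (10 nM), and each treatment lasted 30 min, 1 h or 3 h. This gave 36 groups of 2 arrays. No label names separate cultures within a group, so a p-value rests on a spread between arrays that may be technical.

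Isocitrate lyase splits isocitrate into succinate and glyoxylate, the first of the steps that belong to the glyoxylate cycle alone. In germinating oilseeds the cycle, held largely in peroxisomes, lets acetyl-CoA from stored oil be turned into sugar before the seedling can live from photosynthesis, and the enzyme is known to be abundant just after germination and to fade as leaves turn green. GA1 encodes ent-copalyl diphosphate synthase, an early enzyme of gibberellin synthesis, and DET2 encodes a steroid reductase of brassinosteroid synthesis. Both genes are named by 0 probe sets here, so the genotype labels could not be checked on the mutated genes.

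Levels are signal intensities, scaled so that every array had the same trimmed mean of 1156. Differences are on the scale log2(signal + 55), and a fold change on that scale understates the change of a dim gene. Before scaling, the trimmed means were 865 to 1164 in Col-0, 1827 to 2410 in det2-1 and 1939 to 2970 in ga1-5. The deposited scale thus moved with genotype. Within Col-0 it also moved with replicate number, from 1048 to 1164 on replicate 1 arrays and from 865 to 881 on replicate 2 arrays. Each genotype and time was also a lettered set of arrays of its own, so genotype and set, and time and set, cannot be told apart. With 2 arrays in each group, the number of arrays is one limit on precision.

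ICL was near the bottom of the intensity range in Col-0, near the middle in det2-1 and near the top in ga1-5. Over all 48 Col-0 arrays its lowest, median and highest signals were 14.9, 83.9 and 570.3. Over the 12 det2-1 arrays they were 26.2, 561 and 2821, and over the 12 ga1-5 arrays 5680, 11430 and 17410. Every ga1-5 array was above every array of the other genotypes, a separation from Col-0 that 3.32% of the 17262 tested probe sets showed upward and a separation from det2-1 that 5.49% showed. The det2-1 arrays overlapped those of Col-0, with 6 of 12 above the highest Col-0 array.

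The position of ICL among the probe sets of its own array, which does not depend on the scaling, gave the same order of genotypes. Its percentile ran from 3.19 to 54.7 in Col-0 (median 14.3), from 5.18 to 87.9 in det2-1 (median 53.5) and from 94.2 to 99.2 in ga1-5 (median 97.9). On 39 of the 48 Col-0 arrays ICL was below the 40th percentile, the level a probe set had to pass on at least 2 arrays to be tested. Detection calls were not used here, so whether the Col-0 signal was above background was not measured, and fold differences from Col-0 rest on a dim denominator. In whole seedlings, more cells that express the gene and more RNA per cell cannot be told apart.

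**Figure D1:**
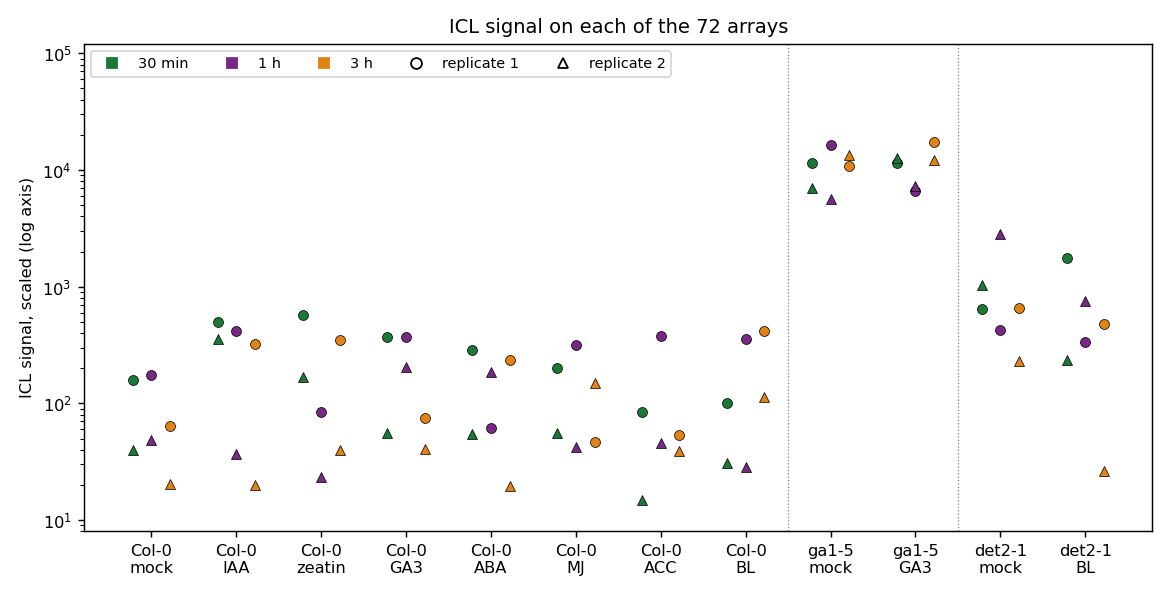
Scaled ICL signal on each of the 72 arrays (log axis), grouped by genotype and treatment, with colour for time and shape for replicate number. The ga1-5 arrays sit between 5680 and 17410, above all other arrays, while det2-1 spreads from 26.2 to 2821 and Col-0 from 14.9 to 570.3.

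In mock-treated ga1-5 the signals of replicates 1 and 2 were 11420 and 6986 at 30 min, 16510 and 5680 at 1 h, and 10910 and 13300 at 3 h. In mock-treated Col-0 they were 159.7 and 39.9 at 30 min, 176.1 and 48.4 at 1 h, and 64.1 and 20.2 at 3 h. The groups were far apart at each time, and 12.5% of tested probe sets had all mock ga1-5 arrays above all mock Col-0 arrays. On the log2 scale the mean was 13.32 ± 0.58 (SD, n = 6) in ga1-5 and 7.00 ± 0.66 (SD, n = 6) in Col-0, a difference of 6.32 or 79.8-fold. The difference was 5.98 at 30 min, 5.98 at 1 h and 7.00 at 3 h, so it was present from the first time measured. Without the pseudocount of 55, the ratio of the geometric means was 158. The mutant difference of ICL was the largest upward difference of the 17262 probe sets tested, whose 99th percentile was 1.47 and whose median was 0.047. The next in order, 5.58 and 5.30, belonged to probe sets unnamed here.

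In mock-treated det2-1 the signals of replicates 1 and 2 were 646 and 1038 at 30 min, 424.6 and 2821 at 1 h, and 660.3 and 229.1 at 3 h. All 6 were above all 6 mock Col-0 arrays, as for 5.82% of tested probe sets, and 4 of the 6 were above every Col-0 array of the study. The log2 mean of 9.60 ± 1.13 (SD, n = 6) exceeded that of Col-0 by 2.60, or 6.05-fold, and this was the 10th largest upward difference of the tested probe sets (99th percentile 1.02, largest 5.36). By time the difference was 2.62, 2.93 and 2.25. It differed by replicate number, at 1.78 from replicate 1 arrays alone and 3.41 from replicate 2 arrays alone. Each value rests on 3 arrays per genotype, with an SD of 1.68 in det2-1 replicate 2, and the split was not tested. In ga1-5 the same split gave 6.14 and 6.49.

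Mock-treated ga1-5 exceeded mock-treated det2-1 by 3.72 on the log2 scale, or 13.2-fold. Their arrays did not overlap. Over all arrays of both genotypes 5.49% of tested probe sets showed this separation, a stricter condition than one on mock arrays alone, whose share was not counted. The steps ga1-5 over det2-1 and det2-1 over Col-0 both held without overlap among mock arrays for 0.591% of the tested probe sets (102). The comparisons of the mutants with Col-0 share the Col-0 mock arrays, and each is therefore given by its own values.

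GA3 moved ICL in ga1-5 by less than the spread between arrays. Signals after GA3 were 11430 and 12710 at 30 min, 6560 and 7322 at 1 h, and 17410 and 12190 at 3 h. The log2 change from mock was 0.43, −0.48 and 0.27 at these times and 0.074 as their mean, against an SD of 0.58 among the 6 mock arrays. At 30 min both treated arrays were above both mock arrays, though by as little as 11430 over 11420, and 13.0% of tested probe sets showed this order. After GA3, ga1-5 still exceeded GA3-treated Col-0 by 5.74. Their arrays did not overlap. Over all arrays 3.32% of tested probe sets showed this separation, a stricter condition than one on GA3 arrays alone, whose share was not counted.

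In Col-0 the arrays after GA3 read 370.5 and 55.7 at 30 min, 371 and 203.1 at 1 h, and 74.9 and 40.9 at 3 h. The changes from mock were 0.60, 1.101 and 0.24, and at 1 h both treated arrays lay above both mock arrays, an order that 16.5% of tested probe sets showed. By replicate number, GA3 arrays were above their same-numbered mock arrays in 6 of 6 pairs, as for 2.65% of tested probe sets. The change in ga1-5 minus that in Col-0 was −0.57 over the times and was not tested. The larger of the single changes, 1.101 in Col-0 at 1 h, stood beside a genotype difference of 6.32.

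BL-treated det2-1 arrays read 1762 and 233.7 at 30 min, 333.2 and 751.9 at 1 h, and 475.9 and 26.2 at 3 h. The last of these lay within the Col-0 mock range, and 5 of the 6 BL arrays were above every Col-0 mock array. The log2 change from mock was −0.27, −1.07 and −1.12 at the 3 times, with a mean of −0.82. Treated and mock arrays overlapped at each time. By replicate number, BL arrays were below their same-numbered mock arrays in 5 of 6 pairs, as many as for 14.9% of tested probe sets. Replicate 1 arrays gave a mean change of 0.21 and replicate 2 arrays −1.85. The only pair that went up was replicate 1 at 30 min, at 1762 against 646.

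In Col-0 the BL arrays read 101 and 31 at 30 min, 354.1 and 28.3 at 1 h, and 420.1 and 113.1 at 3 h. Changes from mock were −0.30, 0.26 and 1.58, and at 3 h both treated arrays were above both mock arrays, as for 17.3% of tested probe sets. The response in det2-1 minus that in Col-0 was −1.33 over the times and −2.70 at 3 h, and was not tested. After BL the genotypes overlapped, with a log2 mean of 8.78 ± 1.51 (SD, n = 6) in det2-1 and 7.51 ± 1.08 (SD, n = 6) in Col-0, a difference of 1.27 where mock seedlings had 2.60.

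**Figure D2:**
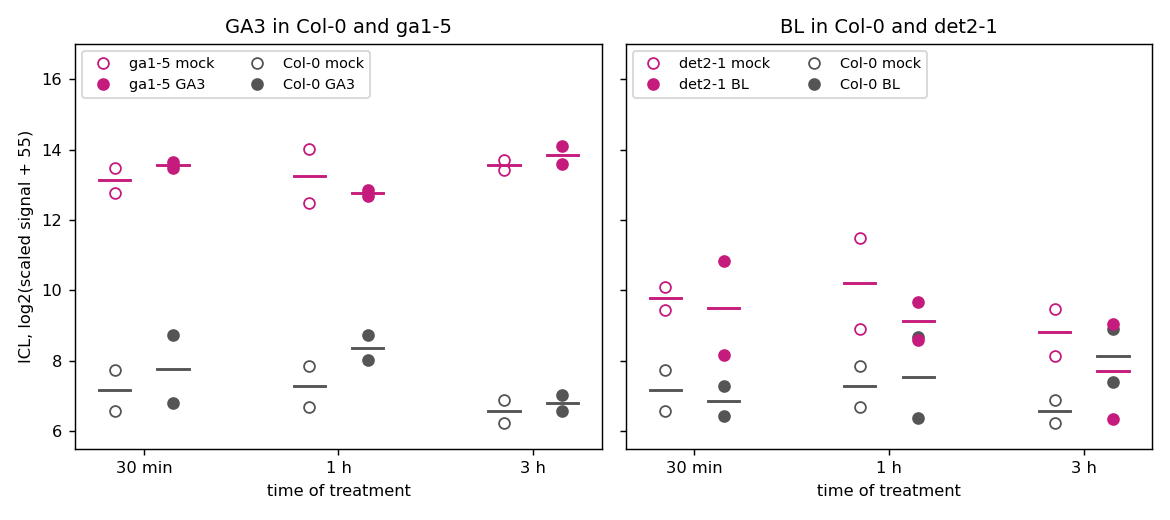
ICL as log2(scaled signal + 55) against time of treatment, for GA3 in Col-0 and ga1-5 (left) and BL in Col-0 and det2-1 (right). Open points are mock arrays, filled points treated arrays and bars the means of 2 arrays. The ga1-5 points stay near 13.3 with and without GA3, while BL-treated det2-1 overlaps BL-treated Col-0 at 1 h and 3 h.

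The other hormones gave comparisons that the choice of ICL did not use, although they share the Col-0 mock arrays with those that it did. After IAA the signals of replicates 1 and 2 were 501.7 and 353.3 at 30 min, 419.6 and 37 at 1 h, and 322 and 19.95 at 3 h. After zeatin they were 570.3 and 168.7 at 30 min, 84 and 23.2 at 1 h, and 351.9 and 39.97 at 3 h. At 30 min both hormones had both arrays above both mock arrays, an order that 15.4% of probe sets measured on all 4 arrays showed for IAA and 14.2% for zeatin. The log2 changes at 30 min were 1.74 (SE 0.986) for IAA and 1.39 (SE 0.986) for zeatin, the largest of the 15 single changes tested. Neither passed the test over the 3 times, with a limma adjusted p of 0.955 for IAA and 1.0 for zeatin. Of all tested probe sets 3.05% and 1.37% passed it. With the replicate number as a block, the limma adjusted p was 0.297 for IAA and 0.42 for zeatin.

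ABA, MJ and ACC gave smaller changes. After ABA the signals were 288 and 54.7 at 30 min, 61.1 and 186.8 at 1 h, and 235 and 19.8 at 3 h. After MJ they were 202 and 55.8 at 30 min, 314 and 42.1 at 1 h, and 46.65 and 150.7 at 3 h. After ACC they were 83.9 and 14.9 at 30 min, 375.9 and 46.1 at 1 h, and 53.5 and 38.8 at 3 h. Treated and mock arrays overlapped for each of these hormones at each time. The mean log2 change over the times was 0.40 for ABA (limma adjusted p = 0.954), 0.38 for MJ (0.978) and −0.0029 for ACC (0.993), where 20.7%, 9.68% and 1.15% of probe sets were called. Single arrays decided the size of these means, which ran from 0.073 (without ABA 3 h replicate 1) to 0.72 (without ABA 3 h replicate 2) for ABA. They ran from 0.061 (without MJ 1 h replicate 1) to 0.70 (without MJ 1 h replicate 2) for MJ and from −0.35 to 0.35 for ACC. In mock Col-0 seedlings ICL changed by −0.59 from 30 min to 3 h (SE 0.986, limma adjusted p = 1.0, unadjusted p = 0.551), and 0.00% of probe sets were called. With 1 array left out that change ran from −1.18 (without mock 30 min replicate 2) to −0.0035 (without mock 30 min replicate 1). For ABA, with the replicate number as a block, the limma adjusted p was 0.803. The standard error of 0.986, from the fit without a block, limits what could be seen. None of these p-values shows that ICL did not respond.

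Ordered by mean level, the 6 ga1-5 groups held the first 6 of 36 places, from GA3 3 h (log2 13.84) to GA3 1 h (12.77). The det2-1 groups followed at places 7 to 10, 12 and 19, from mock 1 h (10.20) to BL 3 h (7.70). Col-0 began at place 11 with IAA 30 min (8.90) and ended at place 36 with mock 3 h (6.57). Arrays of neighbouring groups overlapped at 34 of the 35 steps of this order. The exception was the step from ga1-5 to det2-1, a log2 gap of 2.57 without overlap.

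ICL varied much between the arrays of a group. Its within-group SD was 1.06 on the log2 scale, beside a median of 0.24, and 91.5% of tested probe sets varied less. In Col-0 the replicate 1 array was above the replicate 2 array in 22 of 24 groups, by a median of 1.20, and 4.39% of tested probe sets had replicate 1 higher in as many groups. The median signal was 261.5 over the replicate 1 arrays of Col-0 and 41.5 over its replicate 2 arrays. The exceptions were ABA at 1 h and MJ at 3 h. In ga1-5 replicate 1 was higher in 3 of 6 groups and in det2-1 in 3 of 6. The trimmed means before scaling also differed by replicate number in Col-0. What the replicate number stood for is not given in the sources used here, and its part in the Col-0 levels was not tested.

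**Figure D3:**
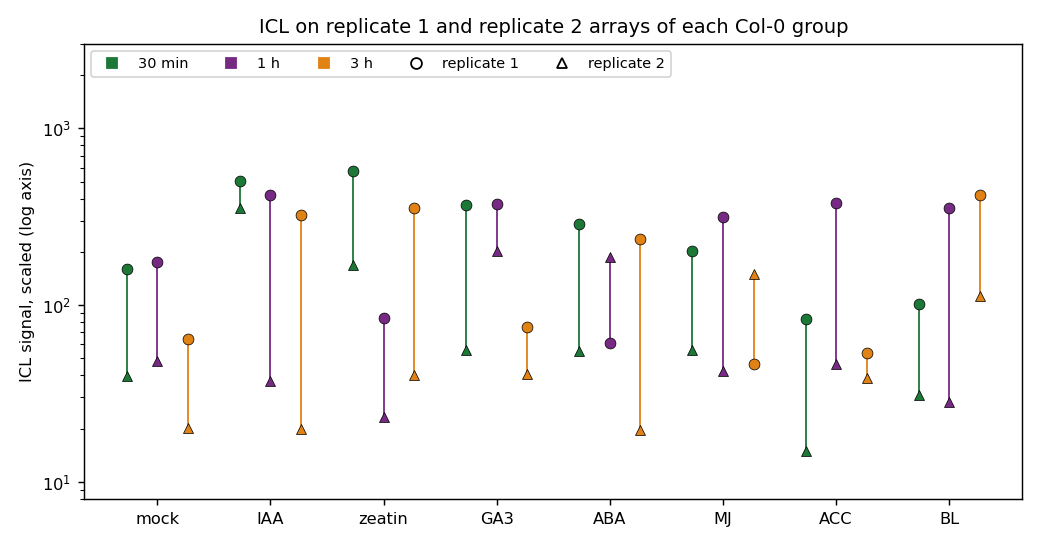
Scaled ICL signal (log axis) on the replicate 1 array (circle) and the replicate 2 array (triangle) of each of the 24 Col-0 groups, joined by a line and coloured by time. The circle lies above the triangle in 22 groups, with medians of 261.5 for replicate 1 and 41.5 for replicate 2.

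Of 101 genes in 8 lists of the glyoxylate cycle and processes around it, only 8 are named by a probe set here and 7 were tested. The lists of the glyoxylate cycle itself, peroxisome biogenesis, seed storage and sugar starvation had 0 tested members, so malate synthase, the other enzyme particular to the cycle, was not analysed here. Another 3 lists, drawn from genes that the annotation does name, held 30 genes, of which 27 were tested. In ga1-5 against Col-0, 5 of the 7 and 20 of the 27 were called at a limma adjusted p threshold of 0.05, beside 42.3% of all tested probe sets. In det2-1 it was 3 of 7 and 12 of 27, beside 27.1%. Without rescaling the median of all tested probe sets was 1.23 in ga1-5 and 1.05 in det2-1 in place of 0.047 and 0.041. Directions of list genes are therefore relative to the bulk of genes on the array, and relative to that median only the calls named below turned under another scaling.

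PPDK, pyruvate orthophosphate dikinase, which makes the phosphoenolpyruvate that can enter sugar synthesis, was the only tested gene of gluconeogenesis and carbon export. Its mock signals had a lowest, median and highest value of 1038, 1357 and 1624 in Col-0, 2294, 2355 and 2750 in ga1-5, and 1167, 1663 and 2326 in det2-1. PPDK was above all Col-0 mock arrays in ga1-5 and overlapped them in det2-1. It rose 1.78-fold in ga1-5 (log2 0.84, SE 0.173, limma adjusted p = 0.000106), where ICL differed 79.8-fold, and its difference of 0.31 in det2-1 did not pass (adjusted p = 0.18).

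The tested genes of oil breakdown did not pass the test in either mutant. SDP1, the lipase that starts oil breakdown on oil bodies, differed by −0.14 in ga1-5 and −0.15 in det2-1. AIM1, a multifunctional protein of peroxisomal beta-oxidation, differed by −0.23 and −0.17. SDP1L, a relative of SDP1, was too dim for the filter, with median mock signals of 11.3 in Col-0, 228.1 in ga1-5 and 59.5 in det2-1. All its mock ga1-5 arrays (151.5 to 294.7) were above those of Col-0 (5.85 to 141.4). Without the filter on low signals SDP1L differed by 1.76 in ga1-5 (SE 0.285, limma adjusted p = 2.5e-06 over 22746 probe sets) and by 0.52 in det2-1 (adjusted p = 0.204). The share of those probe sets called was not counted.

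The genes listed around isocitrate, citrate and succinate, with MDH of malate dehydrogenase among them, moved in both directions. Of 13 tested, 5 rose and 4 fell in ga1-5 and 2 rose and 4 fell in det2-1, where 22.5% and 13.3% of all tested probe sets rose and 19.9% and 13.8% fell. Their median difference was −0.028 in ga1-5 and −0.0048 in det2-1, beside 0.047 and 0.041 over all tested probe sets. Succinate dehydrogenase oxidises succinate, a product of isocitrate lyase, and its subunit genes SDH2-2, SDH2-1 and SDH1-1 rose in ga1-5 by 0.67 (SE 0.0722), 0.67 (SE 0.0988) and 0.31 (SE 0.0813). In det2-1 SDH2-2 rose by 0.22 (adjusted p = 0.0208), while SDH2-1 at 0.20 and SDH1-1 at −0.11 did not pass. SDH1-2, another subunit gene, passed in neither mutant, at −0.15 in ga1-5 (adjusted p = 0.614) and −0.0048 in det2-1 (adjusted p = 0.99). SDH2-1 has a second probe set, too dim for the filter, which read −0.23 in ga1-5 without it (adjusted p = 0.591).

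Other genes of this list, among them those of isocitrate dehydrogenases that compete for isocitrate, did not move as one. The cytosolic isocitrate dehydrogenase gene cICDH fell by 0.76 in ga1-5 (limma adjusted p = 7.66e-07) and by 0.58 in det2-1 (adjusted p = 0.000176). IDH-V, a subunit gene of the mitochondrial enzyme, fell by 0.33 and 0.44, whereas IDH-VI, another, rose by 0.30 in ga1-5. ACLA-2, of the ATP-citrate lyase that makes cytosolic acetyl-CoA, fell by 0.64 and 0.90. MDH, the plastid malate dehydrogenase gene, rose by 0.46 in ga1-5 and 0.35 in det2-1. Without rescaling, cICDH, IDH-V and ACLA-2 were above Col-0 in both mutants, though still below the median of all tested probe sets.

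Genes of late embryogenesis and oil body proteins were higher in ga1-5 in 4 of 6 tested cases and lower in 1, with a median of 0.75. Of all tested probe sets 22.5% were higher and 19.9% lower. LEA18, of a late embryogenesis abundant protein, rose most, from mock signals of 5.10 to 18.8 in Col-0 to 159.8 to 308 in ga1-5 (log2 1.88, SE 0.246, limma adjusted p = 2.83e-08). Its det2-1 signals of 6.31 to 17.8 overlapped those of Col-0, with a difference of −0.050 (adjusted p = 0.906). LEA4-1 and LEA4-5 rose by 1.06 and 1.00 in ga1-5, and LEA26 fell by 0.23, a direction that turned without rescaling. OLEO3, an oleosin that coats oil bodies, rose by 0.51 in ga1-5 (adjusted p = 0.0307) and by 0.78 in det2-1 (adjusted p = 0.00176), the only called gene of the list in det2-1, where 13.3% of all tested probe sets were higher. The summed signal of the list's 7 probe sets, 0 of them at 0 on a mock array, was 13020 to 15470 in Col-0, 11700 to 14060 in ga1-5 and 14110 to 16170 in det2-1. LEA26 alone made up most of it, at 11270 to 13890 in Col-0 and 9179 to 11900 in ga1-5, so the sum does not show the 4 dimmer genes that rose. Whether seed tissue had a part in the ICL level was not tested.

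Genes of photosynthesis went the other way. Of 11 tested over the planned and the added list, 9 fell and 0 rose in ga1-5, and 8 fell and 0 rose in det2-1, where 19.9% and 13.8% of all tested probe sets fell. LHCB4.2, a light-harvesting protein of photosystem II, fell by 1.68 in ga1-5 (SE 0.132, limma adjusted p = 3.18e-14) and by 0.79 in det2-1 (adjusted p = 9.21e-06). RCA, Rubisco activase, fell by 1.32 and 2.15 (SE 0.393 each), and PSAE-1, a photosystem I subunit, by 1.37 and 1.28. RCA varied much between mock det2-1 arrays, from 1614 to 10690, beside 16510 to 29250 in mock Col-0. SBPASE, of the Calvin cycle, fell by 0.64 and 0.49, but was above Col-0 in both mutants under quantile normalization, as PSBW was in det2-1. Without rescaling SBPASE, PSBY, PSBW and PSAN were above Col-0 in both mutants, PSB27 and LHCB4.1 in ga1-5 and LHCB4.2 in det2-1, all still below the median of all tested probe sets. PORB, of chlorophyll synthesis, and LHCB4.3 did not pass in either mutant. The summed signal of the 11 genes, 0 of them at 0, was 224800 to 276500 in mock Col-0, 109500 to 158500 in ga1-5 and 128700 to 175700 in det2-1. The sums were thus lower in both mutants, and the part of green tissue in the ICL difference was not tested. HPR1, hydroxypyruvate reductase of leaf peroxisomes, fell by 0.95 in ga1-5 (adjusted p = 1.12e-12), a direction that turned without rescaling, and stood at 0.038 in det2-1 (adjusted p = 0.779).

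**Figure D4:**
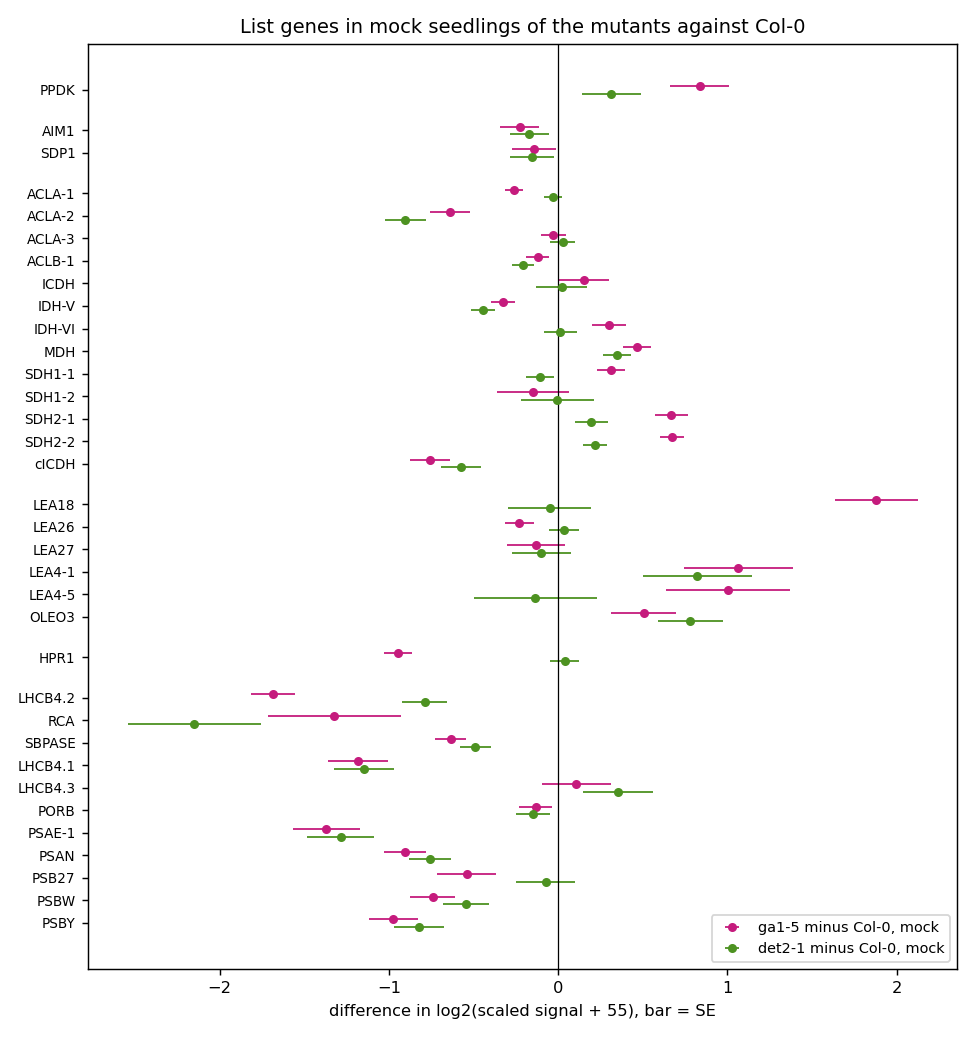
Difference of mock-treated ga1-5 (magenta) and det2-1 (green) from mock-treated Col-0 on the log2(scaled signal + 55) scale for the 34 tested list genes, with bars of 1 standard error from the limma fit. LEA18 in ga1-5 (1.88) is the largest rise and RCA in det2-1 (−2.15) the largest fall. ICL, at 6.32 in ga1-5 and 2.60 in det2-1, is not drawn. Without rescaling 12 of the 25 called genes turn sign in ga1-5 and 9 of 15 in det2-1.

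GA3 in ga1-5 called 0 of 7 and 0 of 27 list genes by limma's F over the times, where 0.127% of tested probe sets were called and 3.52% (607) had an unadjusted p below the same threshold. The individual list genes had adjusted p-values of 1.0. BL in det2-1 called 1 of 7 and 0 of 27, beside 3.16% of all tested probe sets. The 1 of 7 is above that share but rests on 1 gene, so these counts show nothing particular to the lists. That gene was RCA, which changed by −4.18, −1.02 and −2.39 at 30 min, 1 h and 3 h (adjusted p = 2.89e-05). The call was lost when only the det2-1 arrays entered the fit (adjusted p = 0.189). With the replicate number as a block, which applies because these arrays were paired by number, RCA passed again (adjusted p = 9.97e-09) and PPDK, with changes of 0.23, −0.33 and −0.97, passed as well (adjusted p = 0.0285). Over all tested probe sets 545 were called without the block, 1098 with it and 396 with only the det2-1 arrays in the fit.

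Genes whose pattern was most like that of ICL were taken as the 8 with the highest Pearson correlation over the 36 group means, among 9615 probe sets that name 1 gene. Group means share their array sets and genotypes, and the correlations are given as a description. The 99th percentile of r was 0.866 and the median −0.00075. AT5G47600 was highest (r = 0.953), followed by AT3G27240 (0.938), AT1G01970 (0.936), AT5G60460 (0.932), AT5G57655 (0.929), AT2G15000 (0.928), AT1G01910 (0.926) and AT3G27570 (0.923). The mock signals of AT5G47600 had a lowest, median and highest value of 41.5, 83.9 and 147.6 in Col-0, 118.4, 193.9 and 323.5 in det2-1, and 691.8, 787.2 and 1138 in ga1-5. This gene had the ICL order of genotypes, which the choice by correlation over these groups favours. Its mutant difference was 2.61 in ga1-5 and 0.80 in det2-1. The other 7 had ga1-5 differences between 0.62 and 1.17, and det2-1 differences between −0.035 (AT1G01910) and 0.47 (AT2G15000). In det2-1, AT3G27240, AT5G57655, AT1G01910 and AT3G27570 did not pass the limma test (lowest adjusted p = 0.136). That test used arrays that also entered the choice of these genes, so it is no separate support for their likeness to ICL. The SDH2-2 correlation over the same means was 0.922, just outside the 8.

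Within Col-0 alone no gene followed ICL as closely. Over its 24 group means the highest correlations were those of AT3G10540 (r = 0.606), AT5G65205 (0.603), TET9 (a tetraspanin, 0.579), AT4G13200 (0.575), ALATS (alanyl-tRNA synthetase, 0.525), AT4G29780 (0.522), AT5G09995 (0.516) and AT2G39650 (0.515). The 99th percentile was 0.398. Of the 8 genes most like ICL over all groups, AT5G57655 was highest within Col-0 at 0.484 and AT5G47600 next at 0.397, while the other 6 lay between 0.0059 and 0.27.

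Genes beside ICL on chromosome 3 gave smaller mutant differences. Of the 10 genes on each side in the RefSeq annotation of assembly TAIR10.1, 7 were tested, and 0 were called higher in either mutant, while 3 were called lower in ga1-5 and 2 in det2-1. Over all tested probe sets 22.5% and 13.3% were higher and 19.9% and 13.8% lower, so counts among so few genes show nothing particular to the neighbours. The highest difference among them was 0.075 in ga1-5 and 0.27 in det2-1. AT3G21770 was furthest from Col-0 in ga1-5, at −1.59 (limma adjusted p = 3.93e-14), and stood at −0.52 in det2-1 (adjusted p = 0.00143). UGT71B1 and AT3G21670 were called lower in ga1-5 at −0.53 and −0.37. The nearest tested gene, SGP2, stood at 0.075 in ga1-5 (limma adjusted p = 0.808) and fell by 0.59 in det2-1 (adjusted p = 0.0346).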

How the data were processed

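The deposited values are linear intensities, 1 for each probe set on each array. The submitters' processing notes name MAS5. ICL, the gene lists and the tests were chosen with earlier results of these data known, and 3 lists were added to the 8 others after the annotation had been seen. That annotation named 1 gene for 13513 probe sets, several for 503 and none for 8730, and 13436 symbols were updated through Entrez identifiers. On 1 array, Col-0 IAA 30 min replicate 2, 1973 impossible values were treated as missing by a rule chosen after they were seen, and ICL was not among them.

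Arrays were scaled to a common 2% trimmed mean before log2(signal + 55) was taken, 55 being 10% of the median signal. Probe sets above the 40th percentile on at least 2 arrays were tested, controls aside (17262). The model, checked on simulated data, gave each group its own mean over all 72 arrays, with 36 residual degrees of freedom (limma 3.58.1, R 4.3.3, eBayes with a variance trend). Hormones were tested by a moderated F over the times, mutants by a moderated t of the mean over the times, with Benjamini-Hochberg adjustment over all tested probe sets at 0.05. Named genes were every tested member of the glyoxylate and gluconeogenesis lists, up to 4 of each other list with the smallest adjusted p, and the 8 most like ICL. Further genes of the added lists, SDP1L and neighbours on the chromosome were named after their values were seen.

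The labels number the replicates. Same-numbered treated and mock arrays deviated together, with correlations above 0.1 at each time, for zeatin (lowest 0.317), IAA (0.269), ABA (0.135), GA3 in Col-0 (0.273) and BL in det2-1 (0.145), and were taken as paired. The lowest were 0.070 for MJ, 0.018 for ACC, 0.037 for BL in Col-0 and 0.054 for GA3 in ga1-5, which were not. Alternatives changed the scaling, pseudocount, filter, variance trend, arrays in the fit, block or likeness measure, or left out 1 array.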

Additional observations from a re-analysis of the deposited data

How the results depend on the processing

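Across the alternatives run, ICL kept its direction in both mutants. The ga1-5 difference of 6.32 became 7.46 without rescaling, where the median of all tested probe sets also moved by over 1, and 4.89 with a pseudocount of 50% of the median signal, which shrinks ratios to dim levels. Leaving out 1 array gave 6.06 to 6.57. The det2-1 difference ran from 1.55 with that pseudocount to 3.49 without rescaling, and from 2.17 to 3.03 with 1 array left out. The mean GA3 change in ga1-5 ran from −0.18 to 0.33 and so had no settled sign, and the BL change in det2-1 from −1.27 to −0.37. For the 5 other hormones the lowest adjusted p was 0.297, for IAA with the replicate block, and no hormone call of ICL changed with the pairing. Without rescaling, the 3 planned list genes called in det2-1 became 7 and the 12 of the added lists 22. The median of all tested probe sets moved to 1.05 in det2-1 on that scale. The share of all probe sets called there was not counted, so these counts show nothing particular to the lists. The 1 called for BL in det2-1 became 2 with the replicate block and 0 with only the sets compared, where fewer residual degrees of freedom remained (6 in place of 36). Calls over all tested probe sets moved the same way, from 545 to 1098 with the block and to 396 with only the sets compared. Of the 8 genes most like ICL, 1 was shared with Spearman's correlation, 5 with the 72 arrays in place of group means and 6 after quantile normalization, and the cause was not tested. Of all values under alternatives, those of the added lists included, 401 were labelled the same and 8 moved. The label leaves room for changes of size. The det2-1 difference counted as the same at 1.55 and 3.49, and the GA3 change in ga1-5 at either sign. List counts that stayed at 0 are also among the 401. With 1 array left out, the mean change ran from 0.61 to 1.40 for IAA and from 0.28 to 0.98 for zeatin. The number of arrays and the dim Col-0 signal limit the folds, and signal over background was not measured here.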

Other observations

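AOP3 and AT4G19240 were among the largest upward differences from mock Col-0 in both mutants, AOP3 at 3.83 in ga1-5 and 4.57 in det2-1 and AT4G19240 at 3.85 and 3.94, on the log2 scale of the report. They are listed here because ICL stood 1st in ga1-5 and 10th in det2-1 in the same orders, and they were picked after their values were seen. Both mutant comparisons share the Col-0 mock arrays. IDH-III, a mitochondrial isocitrate dehydrogenase gene too dim for the filter, had median mock signals of 30.2 in Col-0, 83.4 in ga1-5 and 43.9 in det2-1. Without the filter it differed by 0.76 in ga1-5 (SE 0.208, limma adjusted p = 0.00331) and by 0.29 in det2-1 (adjusted p = 0.35). Other list genes too dim for the filter did not pass in ga1-5. IDH-IV, of the same family, stood at −0.35 (adjusted p = 0.393) and LEA, a dehydrin gene, at −0.21 (adjusted p = 0.308). The share of all probe sets called without the filter was not counted.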
